A study of Mus musculus with 16 samples.

Results

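The nuclear genes for the subunits of the mitochondrial oxidative phosphorylation complexes were described in macrophages of 3 serous cavities and of the heart. They were the genes of the deposited expression table whose symbols follow the naming of NADH dehydrogenase (Nduf), succinate dehydrogenase (Sdh), cytochrome bc1 (Uqcr), cytochrome c oxidase (Cox4 to Cox8) and ATP synthase (Atp5) subunits. This symbol rule reads no measured value, though it was chosen with earlier results of these data known. It gave 84 of 24981 genes. Of these, 35 were counted with complex I, 4 with complex II, 8 with complex III, 20 with complex IV and 17 with complex V. Ndufa4 and Ndufa4l2 carry complex I names and were counted with complex IV, where the NDUFA4 protein is now placed. RNA was sequenced from macrophages sorted out of pericardial lavage (PF), pleural lavage (PL), peritoneal lavage (PT) and heart tissue (H) of unchallenged C57BL/6 mice 8 weeks old, with 4 libraries per population. All groups shared strain and age, and no genotype or treatment separates them. Expression values are RPKM, in which reads are divided by transcript length and by the mapped reads of the library. Since it is not stated that the 4 libraries of a group stem from different mice, p-values reflect only the spread among the libraries, which may be technical.

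Oxidative phosphorylation passes electrons from NADH through complex I, or from succinate through complex II, by way of ubiquinone, complex III and cytochrome c to oxygen at complex IV. Complexes I, III and IV pump protons across the inner mitochondrial membrane, and complex V uses the gradient to make ATP. Part of the catalytic core of complexes I, III and IV is encoded in mitochondrial DNA, while the accessory subunits, which help to assemble and stabilise the complexes, are nuclear. Several complex IV subunits exist as pairs of a ubiquitous and a tissue-restricted isoform. In macrophages, oxidative metabolism is best known from alternatively activated and tissue-resident cells. The 13 mitochondrially encoded subunits were not analysed here.

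Alignments per library ranged from 40886702 to 70166356. RPKM totals ranged from 334803 to 482872 in PF, from 366880 to 423288 in PL, from 272981 to 433448 in PT and from 227397 to 336952 in H libraries, with PF library 5, PT library 4 and H library 5 farthest from the mean of their group. Since the totals differ between groups, the main counts of genes are given on the deposited scale and again at an equal total. For the latter, every library was scaled to 1 common RPKM total, the scaling that TPM uses. Where no equal total is named, a count is on the deposited scale alone and may differ at an equal total. All 10 general macrophage markers were detected in every library, and their sum ranged from 20251 to 42912 RPKM in cavity and from 5075 to 8901 RPKM in H libraries. Lyz2, which made up most of the sum, lay between 18644 and 40598 RPKM in cavity and between 3719.8 and 6961 RPKM in H libraries, Itgam between 574 and 911 RPKM in cavity and between 48.6 and 67.5 RPKM in H libraries, and Adgre1 between 387 and 681 RPKM in cavity and between 154 and 248 RPKM in H libraries. Csf1r went the other way, between 173 and 297 RPKM in cavity and between 432 and 599 RPKM in H libraries. The summed level of 18 cardiomyocyte markers ranged from 6.11 to 9.82 RPKM in cavity and from 371 to 779 RPKM in H libraries. Of the 18, 17 were higher in every H library than in every cavity library, 14 were below 1 RPKM in all cavity libraries, and none was at 0 in all of them. Fibroblast markers summed to 0.991 to 2.41 RPKM in cavity and 193 to 729 RPKM in H libraries. Endothelial markers summed to 0.908 to 2.02 RPKM in cavity and 7.79 to 22.6 RPKM in H libraries. Erythroid markers summed to 1.08 to 1119.5 RPKM in cavity and 359.8 to 1037 RPKM in H libraries, and B cell markers to 16.3 to 77.1 RPKM in cavity and 8.06 to 15.8 RPKM in H libraries. The part of other cells' RNA in the results on the ubiquitous subunits was not tested. In bulk libraries, fewer cells of a type and less RNA per cell cannot be told apart.

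Most subunit genes were higher in each cavity population than in the heart on the deposited scale. Summed over all 84 genes, they held 2.01% ± 0.155 of the RPKM total in PF, 2.06% ± 0.0855 in PL, 1.83% ± 0.146 in PT and 1.53% ± 0.170 in H libraries (SD, n = 4 each). Every PF and PL library lay above every H library in this share, while PT library 5, at 1.69%, lay below H library 5, at 1.74%. Complexes IV and V held the most. The share of complex IV was 0.631% ± 0.0460 of the total in PF, 0.639% ± 0.0245 in PL, 0.563% ± 0.0451 in PT and 0.466% ± 0.0571 in H, and that of complex V 0.614% ± 0.0496 in PF, 0.630% ± 0.0359 in PL, 0.566% ± 0.0512 in PT and 0.478% ± 0.0494 in H. Complex II held the least, at 0.0621% ± 0.00214 in PF, 0.0637% ± 0.00448 in PL, 0.0622% ± 0.00384 in PT and 0.0587% ± 0.00288 in H.

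**Figure D1:**
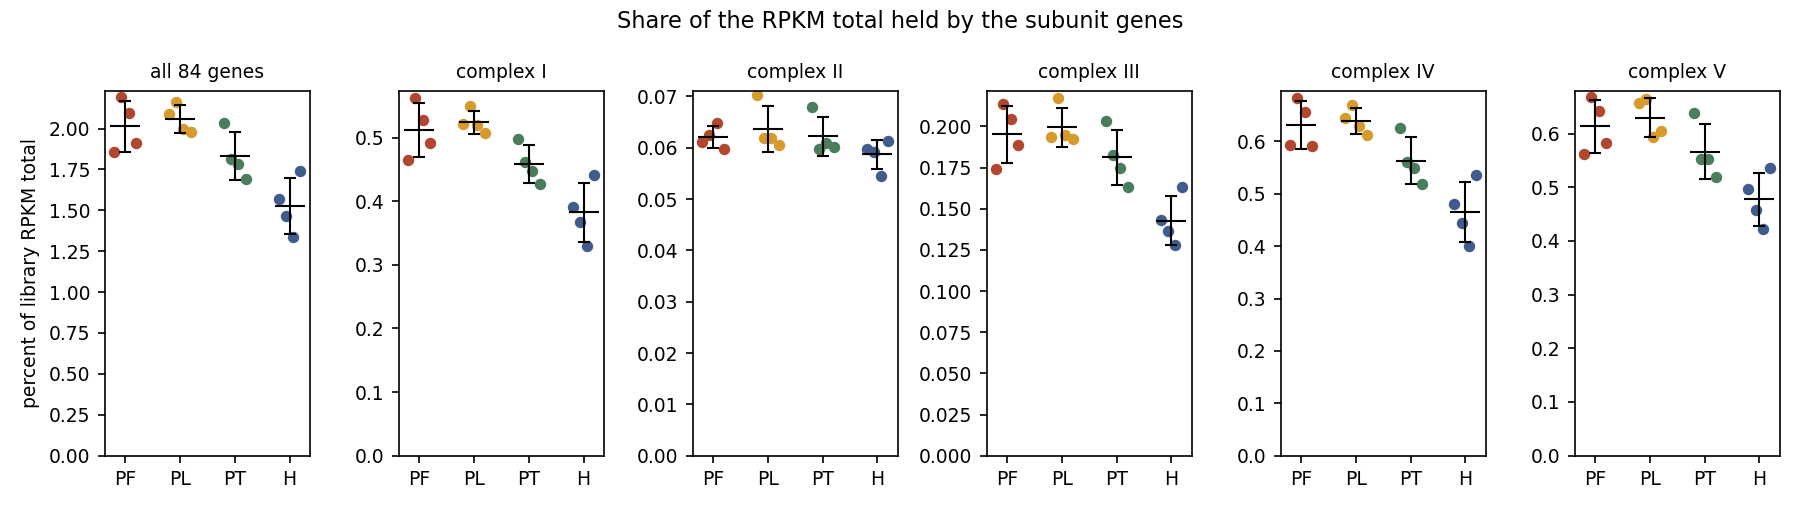
Percent of each library's RPKM total (vertical axes) held by all 84 genes and by each complex in pericardial (PF), pleural (PL), peritoneal (PT) and heart (H) macrophages. Points are libraries, and bars give the mean with SD (n = 4). In complex II the groups overlap, with PF libraries from 0.0598% and H libraries up to 0.0612%.

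Gene by gene, 80 of the 84 subunits reached an RPKM of 1 in 4 or more libraries and were tested together with all 11234 such genes by limma on log2(RPKM + 0.5). A gene was called at a Benjamini-Hochberg adjusted p under 0.05 over all tested genes, and fold changes are on this log2 scale, which understates those of low genes. In PF against H, 74 of the 80 rose and 4 fell, while 53.8% of all tested genes were called higher and 14.7% lower. In PL against H, 71 rose and 4 fell, beside 47.8% higher and 13.9% lower of all tested genes. In PT against H, 60 rose and 4 fell, beside 48.8% and 14.1%, and the count of rises was 36 without PT library 2. The 3 comparisons share the H libraries, and 2 of the 4 genes that fell, Cox6a2 and Cox8b, passed the filter through their H libraries alone and so had to be lower. In PF against H the 2 genes not called were Sdhb and Atp5s.

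At an equal RPKM total fewer genes rose. The count was 50 of 80 in PF against H (24% of all tested genes), 48 in PL (24.1%) and 36 in PT (30.9%). At this scaling 5 members were lower in each comparison, beside 36.2%, 32.8% and 27.4% of all tested genes in PF, PL and PT. The median log2 fold of the 80 over H was 1.003, 0.92 and 0.66 in PF, PL and PT on the deposited scale, beside 0.45, 0.36 and 0.38 for all tested genes. At an equal total it was 0.37, 0.40 and 0.25, beside -0.12, -0.11 and 0.01. The members' median thus lay 0.56, 0.56 and 0.28 above that of all genes on the deposited scale and 0.50, 0.51 and 0.24 above it at an equal total. On the deposited scale 53 members had every PF library above every H library (43.8% of all tested genes), 60 every PL library (44.6%) and 16 every PT library (30.6%). By that measure the members did not stand above all genes in PT.

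**Figure D2:**
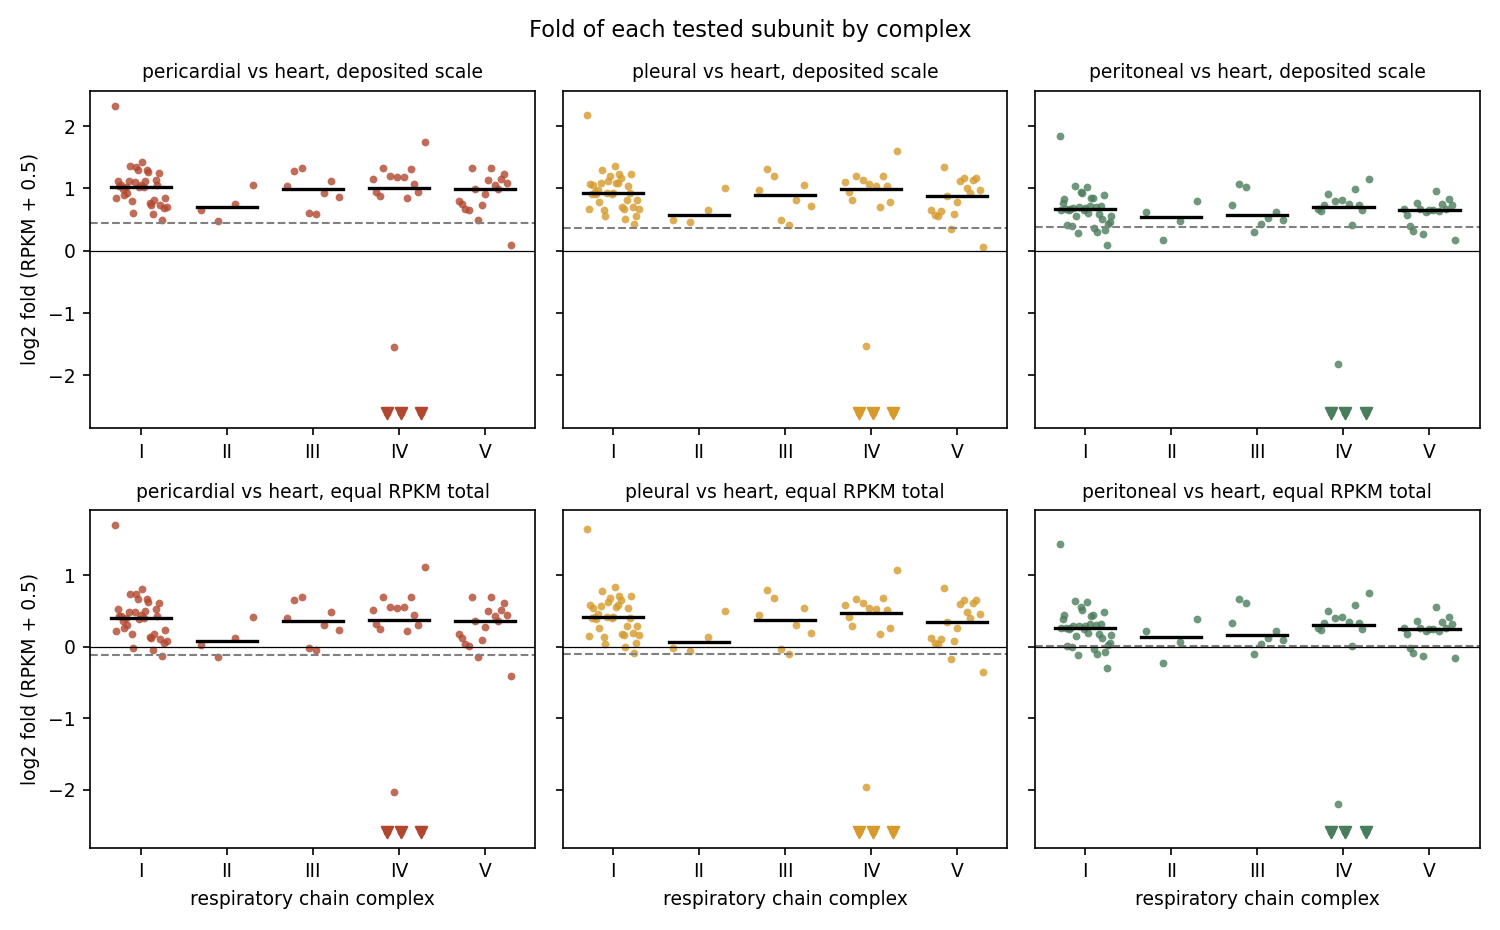
Log2 fold of each of the 80 tested subunits (vertical axis, log2 of RPKM + 0.5) by complex, for pericardial, pleural and peritoneal against heart macrophages, on the deposited scale (upper row) and at an equal RPKM total (lower row). Points are genes, black bars are medians per complex, dashed lines are the median of all 11234 tested genes, and triangles mark genes below the axis (Cox6a2, Cox7a1 and Cox8b). The medians of all 5 complexes lie above the dashed line in each panel, nearest to it in complex II (0.14 against 0.01 in PT at an equal total).

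59 members rose in all 3 comparisons on the deposited scale (42.1% of all tested genes did), and 30 of them did so at an equal total as well (20.7% of all tested genes). These 30 were 15 of 35 complex I genes, 1 of 4 in complex II, 3 of 8 in complex III, 7 of 16 tested in complex IV and 4 of 17 in complex V. The 6 with the largest mean fold were Ndufa1, Ndufa4, Ndufb6, Ndufa8, Uqcr11 and Uqcrb. The 4 members that fell in all 3 comparisons on both scales were Cox6a2, Cox6b2, Cox7a1 and Cox8b, all of them tissue-restricted complex IV isoforms, beside 11.8% of all tested genes on the deposited scale and 25.2% at an equal total. For Cox6a2 and Cox8b the filter itself fixed that direction.

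Ndufa1, a small membrane subunit needed for complex I assembly, had the largest rise of all members. It stood at 143, 214, 198 and 130.5 RPKM in PF, 123, 164, 182 and 139.7 RPKM in PL, 125, 160.2, 88.6 and 113 RPKM in PT, and 30.9, 28.4, 35.4 and 38.5 RPKM in H libraries. Every cavity library lay above every H library. The log2 fold over H was 2.32 ± 0.20 in PF (SE; limma adjusted p = 8.03e-09), 2.169 ± 0.20 in PL (adjusted p = 2.34e-08) and 1.83 ± 0.20 in PT (adjusted p = 2.56e-07). At an equal total the log2 folds were 1.69, 1.65 and 1.43. By log2 fold in PF against H, Ndufa1 ranked 319 among the 11234 genes. The gene lies on the X chromosome (chrX:37187588-37191238, GRCm38) and has a coding length of 210 bases.

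Ndufa4 (chr6:11900372-11907450), named as a complex I subunit while its protein sits in complex IV, had the next largest rise in PF. Its level was 229, 292, 267 and 179 RPKM in PF, 196, 226, 232 and 209 RPKM in PL, 179, 194, 125 and 142 RPKM in PT, and 55.8, 63.4, 65.9 and 106 RPKM in H libraries. No cavity library overlapped with H, with PT library 4 at 125 RPKM and H library 5 at 106 RPKM lying nearest. The log2 fold over H was 1.75 ± 0.21 in PF (limma adjusted p = 6.63e-07), 1.601 ± 0.21 in PL (adjusted p = 2.25e-06) and 1.15 ± 0.21 in PT (adjusted p = 0.000102), and 1.11, 1.08 and 0.74 at an equal total.

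**Figure D3:**
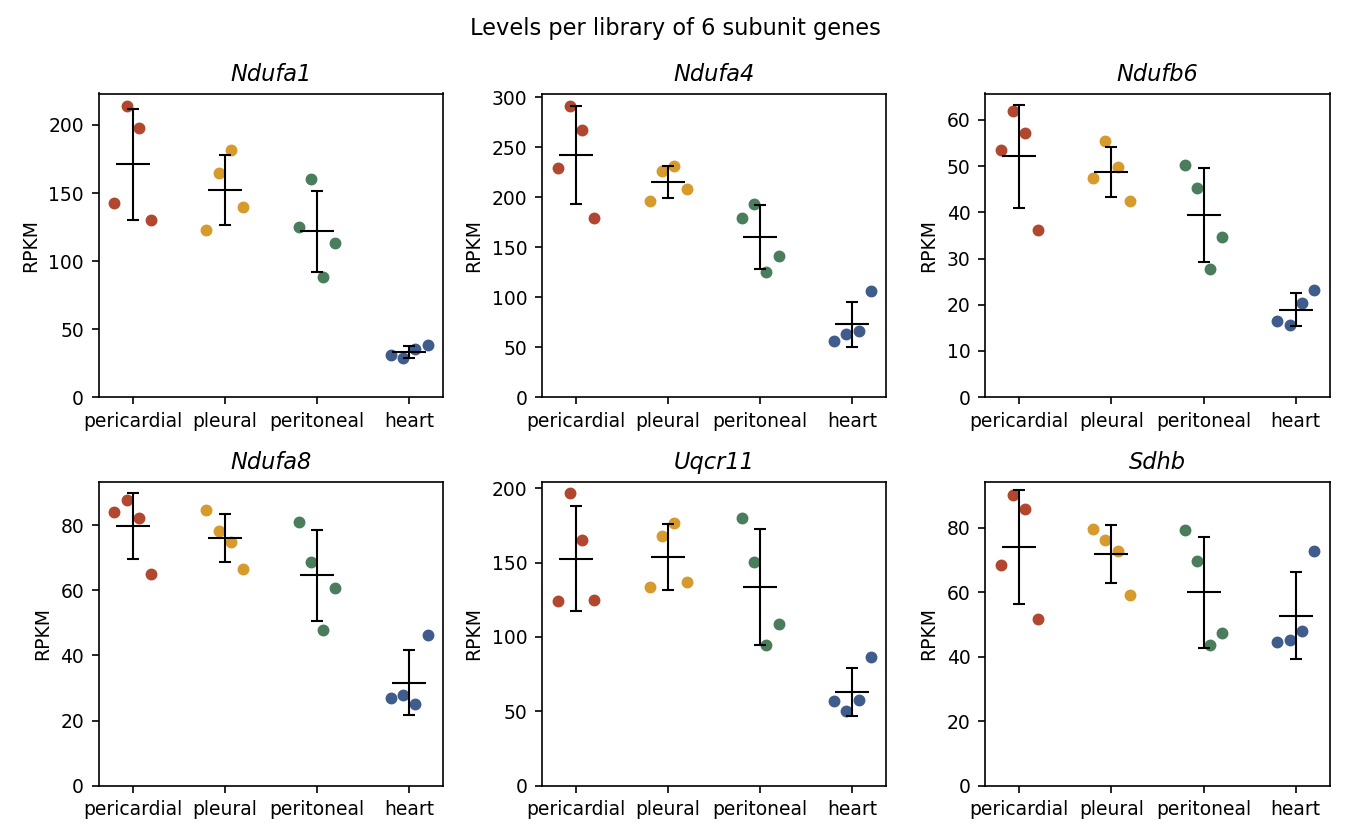
RPKM per library (vertical axes) of Ndufa1, Ndufa4, Ndufb6, Ndufa8, Uqcr11 and Sdhb in pericardial, pleural, peritoneal and heart macrophages. Points are libraries, and bars give the mean with SD (n = 4). In the first 5 genes no heart library is as high as any cavity library, whereas for Sdhb heart library 5, at 72.8 RPKM, lies among the cavity libraries.

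Complex I was described by subunit role, with roles assigned while earlier results were known. All 28 accessory subunits rose in PF and PL and 24 in PT against H, and 22, 22 and 16 did so in PF, PL and PT at an equal total. Of the 7 nuclear core subunits, which carry the flavin, the iron-sulfur clusters and part of the quinone site, 7, 6 and 3 rose in PF, PL and PT, and 1, 2 and 1 at an equal total. For all tested genes these shares were 53.8%, 47.8% and 48.8% deposited and 24%, 24.1% and 30.9% at an equal total, so that the core count in PT and the core counts at an equal total lay near or below the background. The median log2 fold in PF against H was 1.06 for accessory and 0.73 for core subunits on the deposited scale, and 0.43 and 0.10 at an equal total. In PT against H the medians at an equal total were 0.28 and 0.02.

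Ndufb6, an accessory subunit of the membrane arm, was at 53.4, 61.8, 57.2 and 36.2 RPKM in PF, 47.4, 55.4, 49.8 and 42.5 RPKM in PL, 50.2, 45.2, 27.7 and 34.7 RPKM in PT, and 16.4, 15.6, 20.4 and 23.2 RPKM in H libraries. Its log2 fold over H was 1.43, 1.35 and 1.02 in PF, PL and PT (limma adjusted p = 5.51e-06, 1.15e-05 and 0.000234). Cavity and H libraries did not overlap, and Smim27 overlaps the gene on the other strand. Ndufa8, a subunit facing the intermembrane space, was at 79.8 ± 10.1 RPKM in PF, 76.1 ± 7.50 in PL, 64.6 ± 13.9 in PT and 31.6 ± 9.93 in H (SD, n = 4 each), with log2 folds of 1.36, 1.29 and 1.04. Ndufa3, an accessory subunit of the second highest mean level in the complex after Ndufa1, was at 142 ± 46.2 RPKM in PF, 141 ± 30.2 in PL, 119 ± 31.3 in PT and 74.9 ± 19.7 in H. It rose on the deposited scale in PF (log2 fold 0.89, adjusted p = 0.00429) and was not called at an equal total (0.26, adjusted p = 0.224). The iron-sulfur core subunit Ndufs8, named after its values were seen, was at 36.7 ± 7.59 RPKM in PF, 34.5 ± 2.64 in PL, 28.0 ± 7.30 in PT and 26.0 ± 6.21 in H. It was called higher in PF on the deposited scale (log2 fold 0.49, adjusted p = 0.0358) and lower in PT at an equal total (-0.30, adjusted p = 0.00541).

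Complex II is nuclear-encoded throughout and is shared with the citric acid cycle. Its flavoprotein Sdha rose on the deposited scale, with log2 folds over H of 0.66, 0.50 and 0.62 in PF, PL and PT (limma adjusted p = 0.00229, 0.0155 and 0.00382), and at an equal total it was called in PT alone (0.21, adjusted p = 0.0291). The iron-sulfur subunit Sdhb was at 68.5, 90.0, 85.7 and 51.7 RPKM in PF, 79.6, 76.0, 72.7 and 59.1 RPKM in PL, 79.2, 69.7, 43.7 and 47.4 RPKM in PT, and 44.5, 45.3, 48.0 and 72.8 RPKM in H libraries. H library 5 lay among the libraries of all 3 cavities, and Sdhb was called in no comparison with H on either scale (log2 folds 0.49, 0.47 and 0.17 deposited and -0.15, -0.06 and -0.23 at an equal total). Of the membrane anchors, Sdhd rose in all 3 on both scales, with log2 folds of 1.05, 1.01 and 0.79 deposited and 0.42, 0.49 and 0.39 at an equal total. Sdhc rose on the deposited scale (0.75, 0.66 and 0.47) and was not called at an equal total (0.12, 0.14 and 0.06).

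The share of a complex in the summed RPKM of the 84 genes is a ratio within a library that no library scaling alters. Complex II held 3.09% ± 0.182 of it in PF, 3.10% ± 0.210 in PL, 3.401% ± 0.120 in PT and 3.86% ± 0.260 in H (SD, n = 4 each). Complex I held 25.4% ± 0.336 in PF, 25.5% ± 0.427 in PL, 25.1% ± 0.408 in PT and 25.0% ± 0.321 in H. The shares of complex V were 30.5% ± 0.159, 30.6% ± 0.728, 30.9% ± 0.428 and 31.3% ± 0.371 in PF, PL, PT and H. The make-up of the summed subunit RNA by complex thus differed by less than 1 percentage point between group means.

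In complex III, 5, 5 and 4 of the 5 small subunits rose in PF, PL and PT on the deposited scale and 4, 4 and 3 at an equal total. Of all tested genes 53.8%, 47.8% and 48.8% rose on the deposited scale and 24%, 24.1% and 30.9% at an equal total. Uqcr11 was at 124, 197, 165 and 125 RPKM in PF, 133, 168, 177 and 137 RPKM in PL, 179.9, 151, 94.6 and 108 RPKM in PT, and 56.8, 50.3, 57.3 and 86.4 RPKM in H libraries. Its log2 folds were 1.28, 1.31 and 1.07 (limma adjusted p = 6.27e-05, 5.57e-05 and 0.000408), with no overlap between cavity and H libraries. Uqcrb, which lines a quinone pocket, was at 205 ± 49.2 RPKM in PF, 185 ± 25.4 in PL, 167 ± 51.2 in PT and 81.7 ± 22.7 in H, with log2 folds of 1.33, 1.20 and 1.01. It has 3 near-identical copies elsewhere in the genome, which makes its count of reads uncertain. Uqcrh, the hinge protein that contacts cytochrome c1, was at 201 ± 44.9 RPKM in PF, 189.9 ± 21.2 in PL, 144 ± 42.7 in PT and 93.4 ± 29.9 in H. Of the 2 core proteins and the Rieske iron-sulfur protein, Uqcrfs1 alone was called at an equal total, in PF (0.30, adjusted p = 0.00707) and PL (0.30, adjusted p = 0.00788). On the deposited scale it rose in all 3, by log2 folds of 0.93, 0.82 and 0.52.

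In complex IV the ubiquitous subunits rose and the 4 tested tissue-restricted ones fell. The 11 ubiquitous subunits rose in all 3 comparisons on the deposited scale, and 10, 10 and 8 of them in PF, PL and PT at an equal total. Of all tested genes 42.1% rose in all 3 on the deposited scale. At an equal total 24%, 24.1% and 30.9% of them rose in PF, PL and PT. Cox4i1, the member of highest mean level, was at 439 ± 97.7 RPKM in PF, 421 ± 51.5 in PL, 318 ± 82.9 in PT and 200.4 ± 63.3 in H, with log2 folds of 1.15, 1.11 and 0.67 (limma adjusted p = 0.000305, 0.00048 and 0.0176). Cox6a1 was at 387 ± 78.8 RPKM in PF, 349 ± 43.4 in PL, 293 ± 85.3 in PT and 157 ± 53.7 in H, with log2 folds of 1.33, 1.20 and 0.91. Cox7b had log2 folds of 1.32, 1.20 and 0.99 in PF, PL and PT over H, and of 0.69, 0.68 and 0.58 at an equal total, with 2 near-identical copies in the genome. Cox7a2l, known for its part in joining complexes III and IV into supercomplexes, had log2 folds of 0.85, 0.71 and 0.41 and was not called in PT (adjusted p = 0.117).

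Cox6a2, the heart and skeletal muscle form of subunit VIa, was at 0.0438, 0.0604, 0.0436 and 0 RPKM in PF, 0, 0.165, 0 and 0.0433 RPKM in PL, 0.285, 0.0311, 0.166 and 0.0469 RPKM in PT, and 16.2, 15.9, 10.4 and 18.7 RPKM in H libraries. Cox8b, the muscle form of subunit VIII, was listed at 0 in all PF and PT libraries and in 3 of 4 PL libraries, with 0.0601 RPKM in PL library 3, and stood at 21.4, 13.4, 10.99 and 24.1 RPKM in H libraries. Cox7a1, the muscle form of subunit VIIa, was at 1.66, 3.804, 3.14 and 2.09 RPKM in PF, 2.94, 4.11, 3.38 and 2.81 RPKM in PL, 5.13, 2.80, 2.169 and 2.28 RPKM in PT, and 33.2, 28.9, 14.2 and 43.8 RPKM in H libraries. In none of the 3 genes did a cavity library reach the lowest H library. Cox6a2 and Cox8b passed the expression filter through the H libraries alone, so that they had to differ. Cox6b2, a form of subunit VIb best known from testis, was at 0.917 ± 0.244 RPKM in PF, 0.943 ± 0.305 in PL, 0.684 ± 0.292 in PT and 3.84 ± 1.71 in H (SD, n = 4 each).

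Cox7a1 had log2 folds over H of -3.21 ± 0.29 in PF (limma adjusted p = 1.25e-08), -2.91 ± 0.29 in PL (adjusted p = 5.59e-08) and -3.05 ± 0.29 in PT (adjusted p = 2.65e-08). Those of Cox6b2 were -1.54, -1.52 and -1.82 (adjusted p = 2.88e-05, 3.62e-05 and 4.22e-06). The fitted log2 folds of Cox6a2, -4.85, -4.82 and -4.63, are held down by the added 0.5 RPKM, and none is given for Cox8b. All 4 genes lie on chromosome 7, which holds 8 of the 84 members, at distant places of it (GRCm38). These are chr7:128205435-128206366 for Cox6a2, chr7:4751792-4753094 for Cox6b2, chr7:30184171-30186030 for Cox7a1 and chr7:140898942-140900446 for Cox8b. Cox6a2 overlaps an exon of Itgad on the other strand, whose own level was at most 0.0414 RPKM in cavity and 0.0491 RPKM in H libraries.

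The share of the tissue form within its isoform pair does not depend on library scaling. Cox7a1 made up 3.39% ± 0.705 of the summed Cox7a1 and Cox7a2 RPKM in PF, 4.69% ± 0.556 in PL, 5.13% ± 1.21 in PT and 46.5% ± 9.84 in H (SD, n = 4 each). Cox8b made up 0% of its sum with Cox8a in PF, 0.00837% ± 0.0167 in PL, 0% in PT and 14.8% ± 4.59 in H. The share of Cox6a2 in its sum with Cox6a1 was 0.00863% ± 0.00590 in PF, 0.0153% ± 0.0218 in PL, 0.0456% ± 0.0368 in PT and 9.22% ± 2.41 in H. In single H libraries Cox7a1 held from 32.4% to 55.4% of its pair. Cox4i2, the form of subunit IV known from lung, held at most 0.0494% of its sum with Cox4i1 in any cavity library and 0.505% ± 0.0825 in H. In none of these 4 pairs did a cavity library reach the lowest H library. For Cox7a1 the exact two-sided permutation test on the share gave p = 0.0286 in each of the 3 comparisons, the smallest that 4 against 4 libraries allow. Benjamini-Hochberg adjustment over the 12 computed could not change it, since all 12, those of the pairs near 0 in the cavities included, stood at this value. The adjustment therefore adds no support. Since Cox6a2, Cox8b and Cox4i2 were near 0 in the cavities, their shares are given as a description with no test.

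Levels of these isoforms are given beside those of the cardiomyocyte markers. Cox6a2 was between 2.08% and 2.81% of the summed cardiomyocyte marker level in each H library, Cox7a1 between 3.82% and 5.74% and Cox8b between 2.05% and 3.15%. H library 4 had the lowest marker sum (371 RPKM) and the lowest Cox6a2, Cox7a1 and Cox8b of the 4. Cox6b2, which also fell, differed from them. It was at 0.436%, 0.289%, 1.09% and 0.789% of the marker sum in H libraries 2, 3, 4 and 5, highest in library 4. In cavity libraries the marker sum did not exceed 9.82 RPKM. The part of cardiomyocyte RNA in the isoform levels of the H libraries was not tested.

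**Figure D4:**
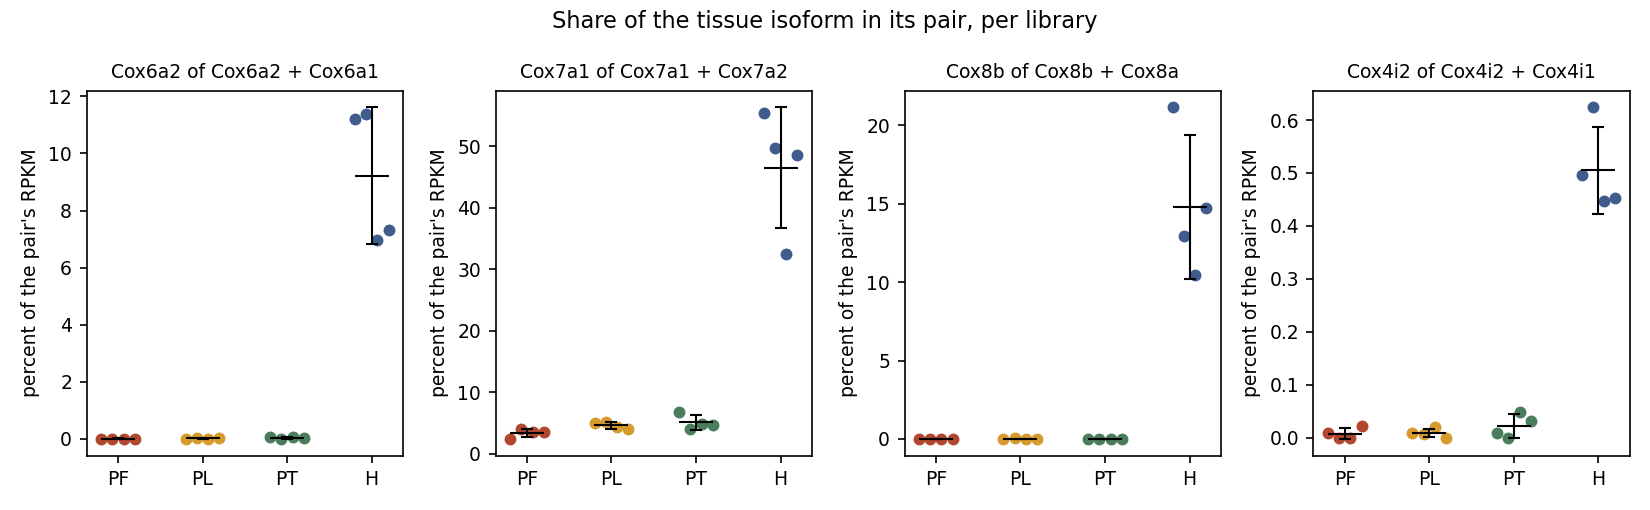
Share of the tissue-restricted isoform in the summed RPKM of its pair (percent, vertical axes) for Cox6a2, Cox7a1, Cox8b and Cox4i2 in each library of pericardial (PF), pleural (PL), peritoneal (PT) and heart (H) macrophages. Points are libraries, and bars give the mean with SD (n = 4). Heart libraries stand above all cavity libraries in each panel, with Cox7a1 at 32.4% or more.

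The other 4 complex IV members did not pass the filter. Ndufa4l2, a paralog of Ndufa4 known to be induced by hypoxia, was listed at 0 in all 12 cavity libraries and at 1.63, 0.674, 0.773 and 0.930 RPKM in H libraries. Cox4i2 was at no more than 0.113 RPKM in cavity libraries and at 0.892, 0.968, 0.784 and 1.34 RPKM in H libraries. Cox7b2 and Cox8c, known from testis, did not exceed 0.266 RPKM in any library.

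Complex V was ordered by position in the enzyme. The 4 small membrane subunits and the 4 peripheral stalk subunits rose in all 3 comparisons on the deposited scale, as did 42.1% of all tested genes. At an equal total only Atp5mpl of the former and Atp5f1, Atp5j and Atp5o of the latter rose in all 3, beside 20.7% of all tested genes. The median log2 folds in PF over H were 1.10 for small membrane and 1.11 for peripheral stalk subunits on the deposited scale. The 5 subunits of the catalytic head and central stalk had a median of 0.75, and the 3 genes of the rotor ring one of 0.73. At an equal total these 4 medians were 0.47, 0.47, 0.11 and 0.09. Atp5j, coupling factor 6 of the stalk, was at 142, 172, 149 and 95.9 RPKM in PF, 105, 131, 139 and 116 RPKM in PL, 109, 137, 81.8 and 102 RPKM in PT, and 44.4, 49.999, 52.7 and 72.6 RPKM in H libraries. Its log2 folds were 1.33, 1.17 and 0.96 (limma adjusted p = 1.53e-05, 7.22e-05 and 0.000479), and cavity libraries all lay above H libraries. Atp5e, the epsilon subunit of the central stalk, was at 361 ± 98.4 RPKM in PF, 356 ± 52.8 in PL, 248 ± 87.3 in PT and 146 ± 58.4 in H, with log2 folds of 1.33, 1.34 and 0.77. Atp5h, the d subunit of the peripheral stalk, was at 284 ± 59.5 RPKM in PF, 278 ± 50.7 in PL, 205 ± 61.1 in PT and 130.3 ± 39.8 in H.

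Atp5g1, Atp5g2 and Atp5g3 encode the same rotor ring protein once the targeting peptide is removed. Their log2 folds in PF over H were 0.49, 0.73 and 0.91, all called. At an equal total they were -0.14, 0.09 and 0.27, of which that of Atp5g3 was called (limma adjusted p = 0.0485). In the authors' deposited table the 2 transcripts of Atp5g1, which differ in their first exon, ran in opposite directions. One had group means of log2 RPKM of 2.21, 1.61 and 2.57 in PF, PL and PT and 4.45 in H in the authors' deposited table. The other had 5.85, 5.75 and 5.58 in PF, PL and PT and 4.45 in H in the authors' deposited table. Ndufv3, a complex I subunit with a short and a long form, also has 2 listed transcripts and was chosen after its values were seen. Its short form, with a coding length of 312 bases, had 5.98, 5.96 and 5.76 in PF, PL and PT and 5.02 in H on the log2 scale of the authors' deposited table. Its long form, of 1404 bases, had 2.66, 2.60 and 2.72 in PF, PL and PT and 2.52 in H on that scale of the authors' deposited table. Atp5s, also called factor B, is not a structural subunit and was low throughout, at 1.75 ± 0.433 RPKM in PF, 1.70 ± 0.359 in PL, 1.88 ± 0.482 in PT and 1.58 ± 0.101 in H. It was called in no comparison with H on the deposited scale and was lower in PF (-0.41, adjusted p = 0.0159) and PL (-0.35, adjusted p = 0.0368) at an equal total.

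The size of the rise went with a short coding sequence. Across the 75 tested members other than tissue isoforms and Atp5s, the log2 fold over H at an equal total had a Spearman rho with coding length of -0.58, -0.60 and -0.49 in PF, PL and PT. Over 10680 tested genes with a known coding length, rho was -0.12, -0.14 and 0.01. Genes are not independent replicates and share libraries, so these are descriptions. The 75 had a median coding length of 411 bases, against 1311 bases for all tested genes, and 74.7% of them had at most 600 bases, against 14.7% of all.

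Short genes as a class also had larger folds. The 273 tested genes of at most 300 coding bases had median log2 folds over H of 0.34, 0.40 and 0.25 in PF, PL and PT at an equal total, and the 5873 genes of over 1200 bases had -0.19, -0.18 and 0.01. The 19 members of at most 300 bases had medians of 0.54, 0.53 and 0.35, and the 8 members of over 1200 bases 0.04, 0.02 and 0.10. Of the 75, 64 in PF, 64 in PL and 57 in PT lay above the median of all tested genes in their length class. The part of length in the members' folds was not tested beyond these values.

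**Figure D5:**
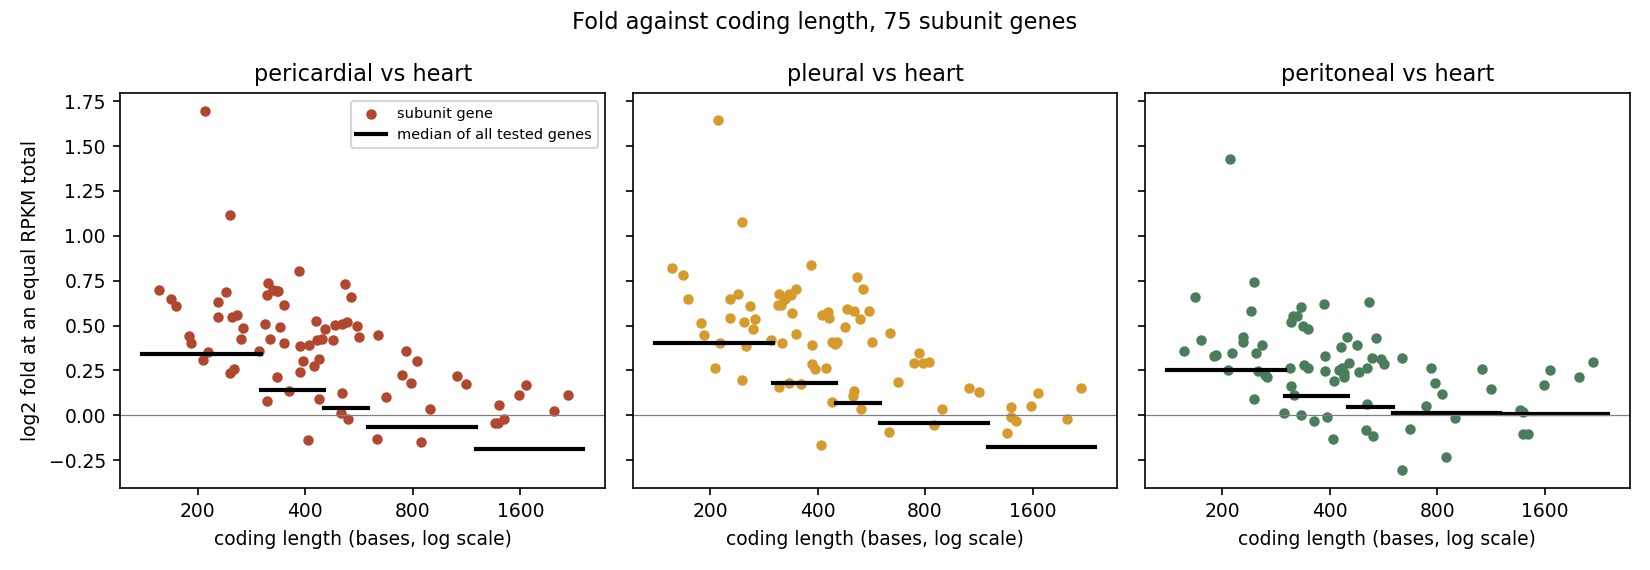
Log2 fold at an equal RPKM total (vertical axis) against coding length in bases (horizontal axis, log scale) for 75 tested subunits in pericardial, pleural and peritoneal against heart macrophages. Points are subunit genes, and black bars are the median of all tested genes in 5 length classes. Folds decline with length, and 64, 64 and 57 of the 75 points lie above the bar of their class.

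Promoters of subunit genes are known to bind nuclear respiratory factor 1 (NRF1), ETS family factors such as GABP, and YY1. Windows of 250 bases upstream of the RefSeq start were at hand for 71 promoters of 66 members. The NRF1 motif, which is GCGCA, any base and GCGC, searched on both strands as all motifs here, was in 19.7% of them, against 8.43% of 11194 promoters of tested genes and 3.74% of all 32851 promoters. The ETS motif CCGGAAG was in 16.9% of member promoters, against 14.3% of those of tested genes and 6.91% of all. The YY1 motif AANATGGC was in 8.45%, 4.65% and 3.91% of these 3 sets. A loose form of the MEF2 motif, CTA and TAG with any 4 bases between them, was in 1.41%, 2.64% and 3.20%. Many muscle genes carry the MEF2 motif, and no stricter form of it was searched. The SP1 motif GGGCGG was in 32.4%, 57.2% and 32.7%, and the CCAAT box in 42.3%, 35.8% and 33.8%. Among 27 promoters of the 30 genes that rose in all 3 comparisons on both scales, 25.9% held the NRF1 motif and 22.2% the ETS motif. A match describes letters and is not a bound site.

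The windows of 4 genes that rose and of 2 muscle isoforms that fell are printed to set their letters side by side. They are from RefSeq for GRCm38.p6 and read 5′ to 3′ on the strand of the gene, ending at the base before the start. Capitals mark matches to the NRF1, ETS, YY1 or MEF2 letters. The windows are chr6:11907451-11907700 (minus strand) for Ndufa4, chr2:36049339-36049588 (minus) for Ndufa8, chr4:40279422-40279671 (minus) for Ndufb6, chr5:115348959-115349208 (minus) for Cox6a1, chr7:30183921-30184170 (plus) for Cox7a1 and chr7:140900447-140900696 (minus) for Cox8b.
Ndufa4: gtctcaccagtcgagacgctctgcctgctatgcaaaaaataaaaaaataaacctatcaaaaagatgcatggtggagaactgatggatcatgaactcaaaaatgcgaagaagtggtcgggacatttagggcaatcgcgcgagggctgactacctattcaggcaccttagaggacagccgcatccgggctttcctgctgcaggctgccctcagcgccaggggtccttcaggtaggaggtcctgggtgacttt
Ndufa8: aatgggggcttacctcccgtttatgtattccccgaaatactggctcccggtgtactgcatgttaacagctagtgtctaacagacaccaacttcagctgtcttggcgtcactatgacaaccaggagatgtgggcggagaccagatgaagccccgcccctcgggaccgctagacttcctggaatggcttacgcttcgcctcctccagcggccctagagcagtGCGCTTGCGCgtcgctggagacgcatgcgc
Ndufb6: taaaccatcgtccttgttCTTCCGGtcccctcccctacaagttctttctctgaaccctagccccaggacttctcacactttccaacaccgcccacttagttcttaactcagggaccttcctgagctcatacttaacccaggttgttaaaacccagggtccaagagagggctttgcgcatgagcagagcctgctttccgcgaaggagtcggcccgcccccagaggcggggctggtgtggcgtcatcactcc
Cox6a1: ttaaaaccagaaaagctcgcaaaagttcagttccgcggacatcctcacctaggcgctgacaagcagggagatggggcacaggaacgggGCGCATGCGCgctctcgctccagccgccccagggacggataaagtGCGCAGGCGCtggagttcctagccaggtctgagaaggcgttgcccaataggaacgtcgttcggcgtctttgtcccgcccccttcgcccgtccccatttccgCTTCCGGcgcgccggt
Cox7a1: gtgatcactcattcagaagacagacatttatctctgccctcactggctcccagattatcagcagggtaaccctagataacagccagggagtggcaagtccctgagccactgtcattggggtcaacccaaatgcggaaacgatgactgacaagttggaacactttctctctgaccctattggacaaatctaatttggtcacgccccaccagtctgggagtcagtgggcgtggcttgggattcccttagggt
Cox8b: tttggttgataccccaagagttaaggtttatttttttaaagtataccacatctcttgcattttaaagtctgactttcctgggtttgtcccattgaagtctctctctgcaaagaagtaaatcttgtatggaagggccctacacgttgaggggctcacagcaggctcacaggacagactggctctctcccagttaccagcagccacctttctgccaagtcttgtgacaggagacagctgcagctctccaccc
Cox6a1 held 2 NRF1 matches, whose first bases lie 162 and 117 bases before the start, and an ETS match 16 bases before it. Ndufa8 held an NRF1 match 30 bases before the start, and Ndufb6 an ETS match 232 bases before it. The windows of Cox7a1, Cox8b and Ndufa4 held none of the 4 motifs in the forms searched. The G+C content was 51.2% in Cox7a1 and 47.2% in Cox8b, against a median of 56.4% over the promoters of members other than tissue isoforms.

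Among the cavities few subunit genes were called. On the deposited scale limma called no member between PF and PT, PL and PT or PF and PL, where 0.525%, 0.214% and 0.0089% of all tested genes were called higher and 0.427%, 0.374% and 0.0089% lower. At an unadjusted p under 0.05, 10 members were higher in PF than in PT, 3 in PL than in PT and none in PF than in PL, and none was lower in any of the 3. Of all tested genes 5.37%, 3.07% and 0.614% were higher and 3.53%, 6.69% and 1.12% lower by that measure in the 3 comparisons. The median log2 fold of the members was 0.35 in PF against PT, 0.26 in PL against PT and 0.07 in PF against PL, beside 0.05, 0.00 and 0.09 for all tested genes. With equal totals these medians were 0.13, 0.14 and -0.04, beside -0.14, -0.10 and -0.01. On the deposited scale no member had every PF library above or below every PT library, where 1.87% and 1.98% of all tested genes did, and none did so for PF and PL (1.29% and 0.783%). For PL and PT, Ndufv2, a core subunit of complex I, and Ndufa4 were higher in every PL library and none was lower (1.9% and 2.04% of all tested genes).

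With libraries at an equal total, Ndufa4 was higher in PF than in PT (log2 fold 0.37, limma adjusted p = 0.031) and in PL than in PT (0.33, adjusted p = 0.04). Ndufa6, an accessory subunit of complex I, was higher in PF than in PT (0.31, adjusted p = 0.0488). Of all tested genes, 0.997% were higher and 3.24% lower in PF than in PT at this scaling, and 0.988% were higher and 5.63% lower in PL than in PT. No member was called between PF and PL at an equal total, beside 0.0178% and 0.0089% of all tested genes. On the deposited scale the log2 folds of Ndufa4 were 0.59 and 0.45 (adjusted p = 0.323 and 0.505), and that of Ndufa6 was 0.53 (adjusted p = 0.413). Ndufa6 stood at 91.1 ± 21.1 RPKM in PF, 80.5 ± 10.1 in PL, 62.9 ± 15.5 in PT and 47.1 ± 9.65 in H (SD, n = 4 each).

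Gene lists around the complexes are read beside the shares of all tested genes in PF against H, 53.8% higher and 14.7% lower on the deposited scale and 24% and 36.2% at an equal total. Of 15 tested complex I assembly factors, 11 rose and none fell in PF against H, with 6 higher and 1 lower at an equal total. Ndufaf2 was at 10.6 ± 1.93 RPKM in PF, 9.39 ± 1.21 in PL, 8.40 ± 2.39 in PT and 4.15 ± 1.52 in H, with log2 folds of 1.29, 1.14 and 0.95. Ndufaf4, Tmem186 and Nubpl, which delivers iron-sulfur clusters, had log2 folds of 1.15, 1.06 and 1.07 in PF. Of 22 complex IV assembly factors, 20, 19 and 17 rose in PF, PL and PT against H, and 10, 11 and 12 did so at an equal total. In PL and PT, 47.8% and 48.8% of all tested genes rose on the deposited scale and 24.1% and 30.9% at an equal total. Cmc2, Coa6, Pet100 and Coa4 had the largest changes, with log2 folds of 1.37, 1.27, 1.23 and 1.20 in PF. Of the smaller lists, 3 of 4 complex II, 4 of 5 complex III and 2 of 4 complex V assembly factors rose in PF against H, among them Sdhaf4 (1.29), Uqcc2 (1.34) and Tmem70 (0.90). The count for complex V is near the share of all genes, and no list of 4 or 5 genes was set against it by a test. Of 8 tested genes for further subunits and electron carriers, a list that also holds the member Atp5mpl, 7 rose in PF, among them the ATP synthase subunit Usmg5 (1.14) and cytochrome c, Cycs (0.87).

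Of all tested genes 53.8%, 47.8% and 48.8% rose in PF, PL and PT against H on the deposited scale, and 14.7% fell in PF. Of 17 tested citric acid cycle and pyruvate dehydrogenase complex genes, 13, 12 and 12 rose in PF, PL and PT against H. At an equal total 8 of the 17 were higher and 4 lower in PF, beside 24% and 36.2% of all tested genes. Pdha1, the E1 alpha subunit of pyruvate dehydrogenase, was at 40.0 ± 4.50 RPKM in PF, 36.3 ± 3.32 in PL, 37.4 ± 7.86 in PT and 17.3 ± 2.39 in H, with log2 folds of 1.19, 1.05 and 1.07. Suclg1, Suclg2 and Dld had log2 folds of 1.02, 0.91 and 0.95 in PF. Of 13 tested regulators of mitochondrial biogenesis, 8 rose and 1 fell in PF against H, but at an equal total none was higher and 4 were lower, beside 24% and 36.2% of all tested genes at that scaling. The 8 of 13 that rose on the deposited scale are near the background. The one that fell was Pparg, a lipid-sensing nuclear receptor, at 0.308 ± 0.0840 RPKM in PF, 0.255 ± 0.0850 in PL, 0.527 ± 0.309 in PT and 2.95 ± 0.773 in H (log2 folds -2.07, -2.172 and -1.77). Pparg passed the expression filter through the H libraries alone, so that it had to be lower in the cavities. Of 18 import and carrier genes, 14 rose and 1 fell in PF against H, with log2 folds of 1.28 for Timm23, 1.22 for Vdac3, 1.07 for Tomm20 and 1.01 for Phb2. The one that fell was Slc25a4, the adenine nucleotide carrier of heart and muscle, named after its values were seen. It stood between 33.7 and 58.5 RPKM in cavity and between 58.5 and 86.9 RPKM in H libraries (log2 folds -0.70, -0.83 and -0.66 in PF, PL and PT), and at between 10.3% and 15.8% of the cardiomyocyte marker sum in H libraries.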

How the data were processed

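Macrophages were sorted by FACS and sequenced from NEBNext Ultra II libraries, per the labels' protocols. The submitters' processing notes name bcl2fastq 2.17.1, TopHat2 2.1.1, Partek 7.18.0723 and the mouse build mm10, and the file headers name TopHat for the alignment to mm10 and Partek for RPKM per gene and transcript. The deposited gene values are RPKM, the transcript table gives the authors' group means of log2 RPKM, and the alignment counts per library are those the authors deposited. Not given in the sources used here are the sort gates, the strand setting and the treatment of multiply mapped reads, so reads of antisense partners (26 of 84 members overlap one) and of near-identical copies (21 of 84 have one of at least 95% identity over 200 bases) may be shared.

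The members, roles and lists were chosen with earlier results of these data known. Libraries were grouped by their labels into PF, PL, PT and H, with replicates 2 to 5 in each. Genes with RPKM of at least 1 in at least 4 of 16 libraries were tested on log2(RPKM + 0.5) with limma 3.58.1 in R 4.3.3, with 1 model over all 16 libraries (12 residual degrees of freedom), an empirical Bayes trend and Benjamini-Hochberg adjustment over all tested genes in each of 6 comparisons. The procedure was first tested on simulated data. An equal-total fit scaled each library to 1 RPKM total. Deviations from the group means of same-numbered libraries correlated by 0.19 to 0.63 in PF and PL, where the numbers were taken to pair libraries. Isoform shares were tested by exact permutation in scipy 1.17.1, and tables were handled in pandas 2.3.3 and python 3.11.15. Copies were found with blastn 2.17.0, coding lengths come from GENCODE, and promoters and gene positions from RefSeq GRCm38.p6, the assembly of mm10. Depth was known per library only, and read counts per gene were not used. Named genes were the isoform pairs, complex II, the rotor ring, the 3 largest rises and falls and the 2 highest levels per complex, calls between cavities and up to 4 called genes per list, and others are said to be chosen after their values were seen where they appear. Other scalings, pseudocounts, filters, a replicate block, 2-group fits, untrended variance and leaving out libraries were the alternatives tried.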

Additional observations from a re-analysis of the deposited data

Results flagged for a closer look

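Among 156 groups of 4 libraries tested, 11 had a library whose gap to the nearest other, divided by the range of the group, was above Dixon's 95% critical value, and chance gives about 1 in 20. H library 5 stood above the other H libraries for Ndufa3 (104 RPKM), Ndufa8 (46.4 RPKM), Sdhb (72.8 RPKM), Cox6a1 (237 RPKM), Cox7a2 (46.5 RPKM) and Atp5h (189.6 RPKM), and it had the highest RPKM total of the H libraries. PF library 5, of the lowest RPKM total in PF, stood below the other PF libraries for the Rieske protein Uqcrfs1 (34.997 RPKM). PL library 3 was the one PL library with Cox8b above 0, at 0.0601 RPKM. As shares of the RPKM total, complex II was highest in PL library 2 (0.0704%) and PT library 2 (0.0679%), and complex III in PL library 3 (0.217%). The part of library totals in these values was not tested.

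Between cavities, 2 genes were called at an equal RPKM total by limma with Benjamini-Hochberg adjustment, in the comparisons with PT given above. A difference between folds over heart is the same comparison, since the heart mean cancels, so it is no second result. Ndufa4 was higher by 0.37 on the log2 scale in PF than in PT (adjusted p = 0.031) and by 0.33 in PL than in PT (adjusted p = 0.04), and Ndufa6 was higher by 0.31 in PF than in PT (adjusted p = 0.0488). None of the 3 differences was called on the deposited scale.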

How the results depend on the processing

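The median log2 fold of the members stayed positive against H under all scalings run. In PF it was 0.37 at an equal RPKM total, 0.52 at an equal total without the 20 highest genes, 0.64 after median-ratio scaling and 0.42 after quantile normalization. In PL it was 0.40, 0.54, 0.61 and 0.46 under the same scalings, and in PT 0.25 at an equal total and 0.29 with quantile normalization. In PT against H, 36 members rose at an equal total (30.9% of all tested genes) and 34 with median-ratio scaling. Leaving out 1 library gave 71 to 75 rises in PF, 65 to 75 in PL and 36 to 71 in PT, and medians of 0.88 to 1.14, 0.83 to 1.08 and 0.54 to 0.82, with 4 falls each time. Without PF library 5, PT library 4 and H library 5, chosen after seeing the data, 75, 75 and 74 rose. For left-out libraries and median-ratio scaling the share of all tested genes called is not given. With all libraries on the deposited scale, 53.8%, 47.8% and 48.8% of all tested genes rose in PF, PL and PT. Counts without such a share describe only how stable the calls of the members were. Without the muscle isoforms and Atp5s, 1 member fell in each comparison. Between PF and PT, 2 members were higher at an equal total with or without the 20 highest genes, and 1 with quantile normalization or without those 3 libraries. Between PL and PT, 1 was higher at an equal total with or without the 20 highest genes and with quantile normalization. For the 3 comparisons among cavities, leaving out 1 library gave 0 called members and medians of 0.20 to 0.47 for PF against PT, 0.12 to 0.38 for PL against PT and -0.03 to 0.21 for PF against PL. In the pathway lists 39 genes rose in PF and 40 in PL at an equal total, beside 24% and 24.1% of all tested genes. In PF, PL and PT 15, 9 and 10 list genes fell, beside 36.2%, 32.8% and 27.4% of all tested genes. The lists held 15, 4, 5, 22, 4, 8, 17, 13 and 18 tested genes, with some overlap.

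Sdhb reversed in PF (-0.15 at an equal total, -0.00128 without the 20 highest genes, -0.10 with quantile normalization), in PL (-0.0566 and -0.0139 at an equal total and with quantile normalization) and in PT (-0.23, -0.10, -0.14 and -0.22 at an equal total, without the 20 highest genes, with median ratios and with quantiles). Atp5g1 reversed in PF (-0.14 and -0.0848 at an equal total and with quantiles), PL (-0.17, -0.0254 and -0.11 at an equal total, without the 20 highest genes and with quantiles) and PT (-0.13, -0.0367 and -0.12 at an equal total, with median ratios and with quantiles). Atp5s reversed at an equal total (-0.41, -0.35 and -0.17 in PF, PL and PT), without the 20 highest genes (-0.29, -0.24 and -0.0582), with median ratios (-0.19, -0.18 and -0.0843) and, in PF and PL, with quantiles (-0.00333 and -0.0475), and leaving out 1 library gave -0.00874 to 0.22 in PF (lowest without PF replicate 3) and -0.0418 to 0.13 in PL (lowest without PL replicate 5). Sdha reversed in PL at an equal total (-0.0211). The cause was not tested.

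For no pair of groups but PF and PL did every same-numbered pair of libraries correlate over 0.1, so outside PF against PL the numbers were not taken to pair libraries (14 of 24 pairs over 0.1, from -0.63 to 0.63, median 0.20 against -0.02 for differently numbered libraries, and 7 of 16 libraries correlated best with their own number). With a replicate block, 73, 70 and 56 members rose and 4 fell against H, and none was called among cavities, so that it changed no call in PF against PL. The share of all tested genes called with the block is not given. Leaving out 1 library moved the isoform share differences from H, in percentage points, over -47.8 to -40.2, -46.5 to -38.9 and -46.1 to -38.4 for Cox7a1 in PF, PL and PT, over -16.3 to -12.7 for Cox8b, -9.96 to -8.45 for Cox6a2 and -0.517 to -0.443 for Cox4i2. Depth per gene was not known from RPKM, which limits what can be said of levels near 0.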

Other observations

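Ribosomal protein genes, lists chosen after values were seen, also differed between cavity and heart macrophages. Of all tested genes 53.8% were called higher and 14.7% lower in PF against H on the deposited scale, and 24% and 36.2% at an equal total. Of 82 tested cytosolic ribosomal protein genes, 80 rose and 1 fell in PF against H by limma, with a median log2 fold of 1.20. At an equal RPKM total 75 were higher and 2 lower, with a median of 0.57. Of 78 tested mitochondrial ribosomal protein genes, 73 rose and none fell in PF against H, with a median of 0.94. At an equal total 47 were higher and 4 lower, with a median of 0.33. In PL and PT against H, 79 and 75 cytosolic and 70 and 64 mitochondrial ribosomal protein genes rose on the deposited scale, beside 47.8% and 48.8% of all tested genes. The subunits' median log2 fold in PF, 1.003 deposited and 0.37 at an equal total, lay between those of the 2 lists, and no difference between the lists was tested.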
